A study of Mus musculus with 12 samples.

Results

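Kit, Ifitm1, Ifitm2, Ifitm3, Alpl and Cxcr4 encode proteins of the germ cell surface, and were taken by name as 6 of the 35975 mouse genes counted. All 6 were among the genes of each of the 12 RNA sequencing libraries. The cells were E14TG2a mouse embryonic stem cells kept in 2i medium with vitamin C, either as a TKO line (its label; the study is known to have knocked out Dnmt1, Dnmt3a and Dnmt3b, the enzymes that write and copy DNA methylation) or as wild type (WT). They were primed toward epiblast-like cells and then aggregated for 4 days to make primordial germ cell-like cells (PGCLCs). All aggregates received BMP4 (0.5 µg/ml), BMP8 (0.5 µg/ml), SCF (0.1 µg/ml), EGF (50 ng/ml) and LIF (1000 units/ml). The groups were TKO primed for 40 h (TKO_40h), 48 h (TKO_48h) or 96 h (TKO_96h), and WT primed for 40 h (WT_40h), with 3 libraries each. WT was thus sequenced at 1 priming time, and a longer priming time was compared within TKO. TKO_48h and TKO_96h differ from WT_40h in both genotype and priming time, and comparisons between them cannot separate the effects. The labels call the libraries biological replicates and say no more, so p-values measure the spread between these libraries. They name no clones, and leave unstated if cells were sorted ahead of RNA extraction or aggregates were used whole. In bulk RNA, fewer cells of a type and less RNA per cell cannot be told apart.

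Primordial germ cells are recognised and guided through proteins at their surface. KIT is a receptor tyrosine kinase whose ligand, SCF (gene Kitl), keeps migrating germ cells alive, and SCF was itself part of the induction medium here. IFITM1 and IFITM3 (Fragilis) are small membrane proteins known as early germ cell markers in the mouse, and the family is also induced by interferon. ALPL is the tissue-nonspecific alkaline phosphatase, held at the membrane by a lipid anchor, whose activity stains both primordial germ cells and pluripotent stem cells. CXCR4 is the receptor through which CXCL12 steers germ cells to the gonad.

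Libraries held 6570180 to 9114128 estimated counts, and 16178 genes passed the filter on low counts, Cxcr4 not among them. Levels are given as CPM, the counts scaled to a common library size, and changes as log2 fold changes with their standard error, called where edgeR's quasi-likelihood test, adjusted over all genes by Benjamini-Hochberg, gave a p below 0.05. The genotype labels were checked on Dnmt1, which averaged 120 ± 8.63 CPM in TKO_40h and 439 ± 12 CPM in WT_40h. Dnmt3a averaged 64.3 ± 3.97 CPM in TKO_40h and 406 ± 41.5 CPM in WT_40h, and Dnmt3b 47.9 ± 8.28 CPM in TKO_40h and 185 ± 28.9 CPM in WT_40h (SD, n = 3 each throughout). All 9 germ cell genes listed passed the filter, among them Prdm1, a founding regulator of the germ line, with 20.9 ± 1.40 CPM in TKO_40h against 29.3 ± 6.21 CPM in WT_40h. Nanos3, a germ cell survival factor, was low, with 1.40 ± 0.519 CPM in TKO_40h against 2.00 ± 0.800 CPM in WT_40h. Neither gene passed the test in that comparison (adjusted p = 0.29 for Prdm1 and 0.84 for Nanos3). TKO_48h replicate 1 stood apart, with the fewest genes at 10 counts or more (13530), the largest share of counts in unmatched transcripts (4.32%) and the highest Ifitm1, Ifitm3 and Alpl of all 12 libraries. It also held the fewest estimated counts (6570180), and the number of genes at 10 counts or more depends on depth. Correlations between libraries of 1 group were 0.931 to 0.945 in TKO_48h and 0.950 to 0.957 in the other groups.

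At 40 h of priming, Kit and Ifitm2 were lower in TKO than in WT: 2 of the 5 tested members were called, where 3.1% of all tested genes were called in either direction and 1.48% lower. Kit and the 3 Ifitm genes were higher in TKO_48h than in TKO_40h, 4 of 5 against a background of 5.49% (2.57% higher). In TKO_96h, Ifitm2 and Ifitm3 were higher than in TKO_40h, 2 of 5 against 12.1% (4.94% higher). Alpl did not pass the test in those 3 comparisons, and Cxcr4, with at most 16 counts in a library, was not tested with them. Between TKO_96h and TKO_48h, Ifitm1 and Alpl were lower in TKO_96h, 2 of 5 against 19.5% (10.7% lower). Set against WT_40h, Ifitm3 and Alpl were higher in TKO_48h (2 of 5 against 5.66%, with 2.84% higher) and Ifitm2 and Ifitm3 in TKO_96h (2 of 5 against 19.1%, with 9.1% higher). Those comparisons with WT_40h mix genotype and priming time. CPM ranges did not overlap for 4 of the 5 in TKO_40h against WT_40h, for 5 in TKO_48h against TKO_40h and for 4 in TKO_96h against TKO_40h, where 25.7%, 24% and 32.2% of all tested genes did not overlap. The counts were 1 of 5 in TKO_96h against TKO_48h (32.8% of all), 3 in TKO_48h against WT_40h (24%) and 1 in TKO_96h against WT_40h (37%). The members were few and chosen with results known, so these shares are descriptions.

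**Figure D1:**
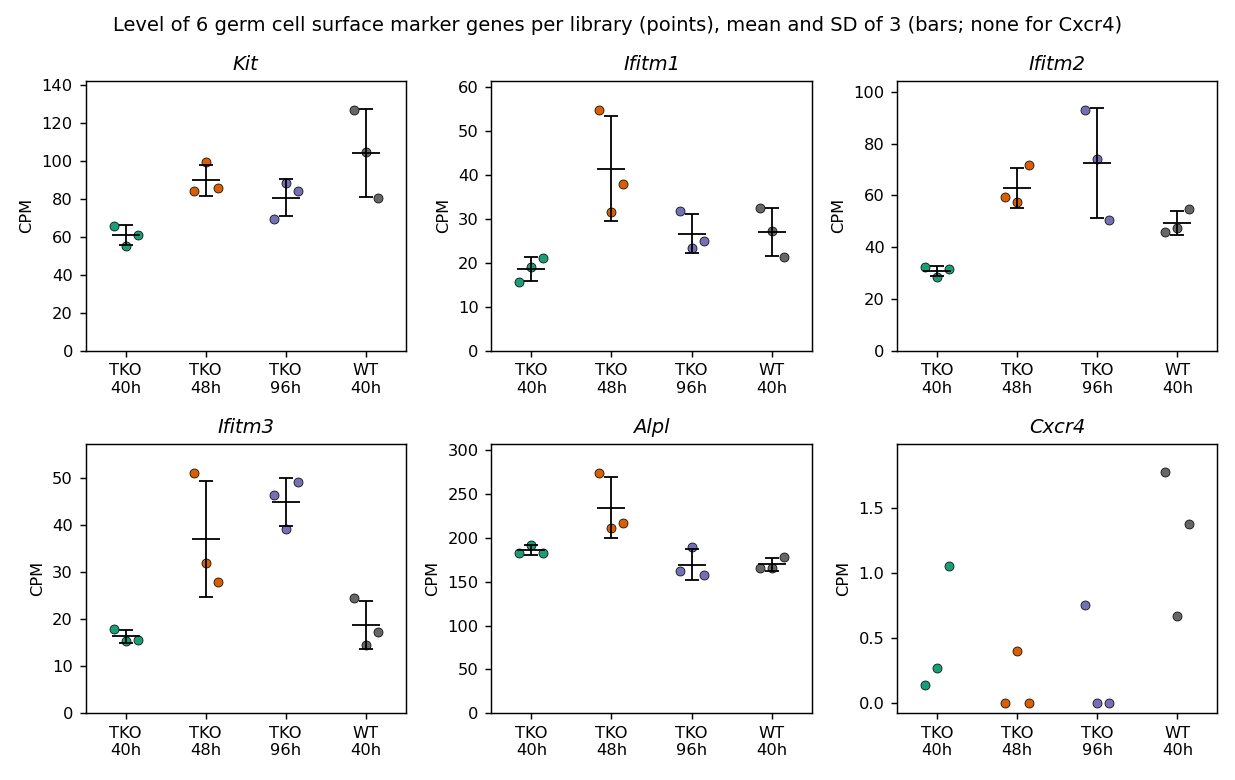
CPM of each of the 6 genes in the 12 libraries (points), by group on the x axis, with the mean and SD of 3 libraries (bars, none for Cxcr4); each panel has its own linear y axis. Kit lies between 55.4 and 65.9 CPM in TKO_40h and between 80.6 and 127 CPM in WT_40h, and Cxcr4 has no count in 4 of the 6 TKO_48h and TKO_96h libraries.

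Kit (ENSMUSG00000005672.12; GRCm38, chromosome 5, 75574916 to 75656722, plus strand) had 65.9, 55.4 and 61.2 CPM in TKO_40h, 84.3, 99.4 and 85.9 CPM in TKO_48h, 69.6, 88.5 and 84.3 CPM in TKO_96h, and 127, 105 and 80.6 CPM in WT_40h. TKO_40h was the low group, and its 3 libraries overlapped none of the other groups. WT_40h spread most, its replicate 3 lying below all of TKO_48h. Kit was lower in TKO_40h than in WT_40h, with a log2 fold change of -0.78 ± 0.15 (0.584-fold, adjusted p = 0.0065), and higher in TKO_48h than in TKO_40h, by 0.56 ± 0.15 (adjusted p = 0.031). The other differences were 0.41 ± 0.15 for TKO_96h over TKO_40h (adjusted p = 0.08), -0.15 ± 0.15 for TKO_96h over TKO_48h (0.52), -0.21 ± 0.15 for TKO_48h over WT_40h (0.46) and -0.37 ± 0.15 for TKO_96h over WT_40h (0.089). In order of level the groups ran WT_40h, TKO_48h, TKO_96h and TKO_40h, and no pair of neighbours in that order passed the test. The comparisons share libraries, and the low TKO_40h values enter each one made with TKO_40h. Without WT_40h replicate 1 the difference of TKO_40h from WT_40h was -0.60 (adjusted p = 0.054). Without any 1 of the 3 TKO_40h libraries, or without TKO_48h replicate 2 or 3, the 48 h difference was no longer called (0.49 to 0.62, adjusted p = 0.059 to 0.14).

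Both coding transcripts of Kit were read, and they differ by 12 bases inside the coding sequence, placed by the alignment at positions 1631 to 1642 of Kit-201. In the mouse these are known as the receptor forms with and without a short run of residues just outside the membrane. The junction is shown from GENCODE M21, plus strand, 5′ to 3′, with the 12 bases that the alignment gave as extra in Kit-201 in capitals. The letters aaag both open and follow the marked stretch, so it could be placed a few bases later as well.
Kit-201: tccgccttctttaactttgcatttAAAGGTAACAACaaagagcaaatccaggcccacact
Kit-204: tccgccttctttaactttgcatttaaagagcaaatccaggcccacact

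The deposited transcript estimates gave Kit-201, the longer form at this junction, 31.8 ± 7.61% of Kit counts in TKO_40h, 17.2 ± 6.78% in TKO_48h, 47.0 ± 5.52% in TKO_96h and 36.4 ± 8.87% in WT_40h. Kit-204 took 63.3 ± 7.11% in TKO_40h, 73.6 ± 11.9% in TKO_48h, 45.3 ± 3.57% in TKO_96h and 55.7 ± 8.15% in WT_40h. The Kit-201 share was thus lowest in TKO_48h and highest in TKO_96h. Only 38 stretches of 31 bases in Kit-201 and 65 in Kit-204 are absent from the other transcript, and 39 bases at the 5′ end of Kit-204 also set it apart, so the shares are estimates from few reads and were not tested. The other 6 of the 8 transcripts are annotated as retained introns and are shorter. By counts each took little, the most being 2.45% of Kit counts over all libraries (Kit-207). Scaled to length they weighed more, with 17.2% of Kit TPM in TKO_40h, 36.9% in TKO_48h, 45.3% in TKO_96h and 38.2% in WT_40h (TPM is the deposited level, scaled to transcript length and depth). These TPM shares rest on few counts and are not the share of Kit reads. The effective length of Kit, weighted by TPM, averaged 4400 bases in TKO_40h, 3482 in TKO_48h, 2992 in TKO_96h and 3371 in WT_40h. With an offset for effective length, Kit was higher in TKO_96h than in TKO_40h by 0.94 (adjusted p = 0.0044), against 0.41 in the main fit (0.08). That length rests in part on short transcripts with few counts. Kit-202, of 392 bases, had 3.6, 0 and 4.6 counts in TKO_40h and 12.7, 12.3 and 18.7 in TKO_96h. Coding transcripts alone came to 7.16 ± 0.826 TPM in TKO_40h and 9.15 ± 1.61 TPM in TKO_96h. Fitted with coding transcripts alone, the difference of TKO_48h from TKO_40h was 0.48 (adjusted p = 0.16).

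**Figure D2:**
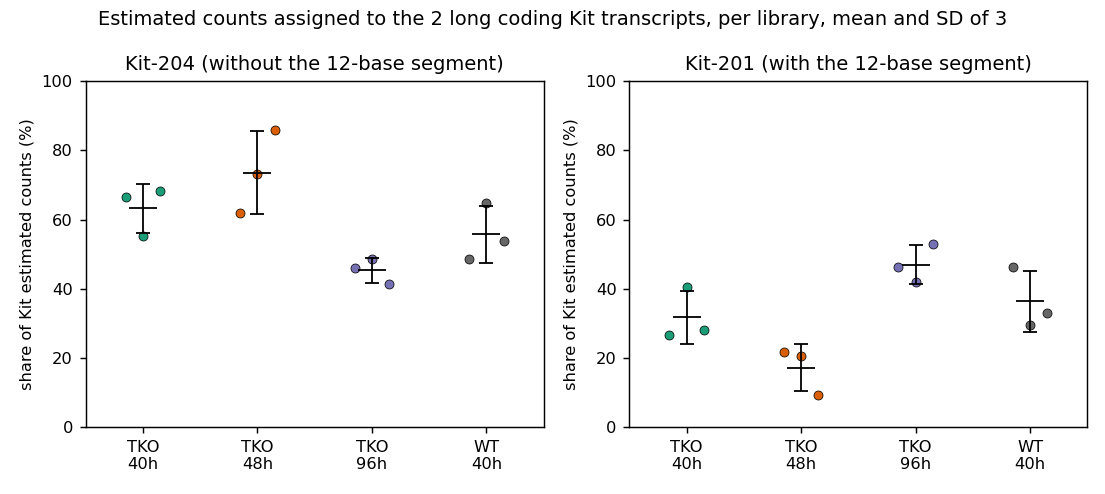
Share of the estimated Kit counts, in percent (y axis), assigned to Kit-204 and to Kit-201 in each library (points), by group, with the mean and SD of 3 libraries (bars). The Kit-201 share ranges from 9.36 to 52.9% over the libraries and is lowest in TKO_48h on average (17.2%) and highest in TKO_96h (47.0%).

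The 3 Ifitm genes lie together on chromosome 7 (GRCm38): Ifitm2 (ENSMUSG00000060591.9, 140954837 to 140955987, minus strand), Ifitm1 (ENSMUSG00000025491.14, 140967221 to 140969825, plus strand) and Ifitm3 (ENSMUSG00000025492.6, 141009586 to 141010770, minus strand). They are shown as 1 family called higher in TKO_48h than in TKO_40h, where Kit, not printed here, was called higher too. Each is given with the 150 bases before and 30 bases after the start site (RefSeq, GRCm38.p6), 5′ to 3′ on each gene's own strand. Capitals mark matches to GAAANNGAAA, the core of the interferon-stimulated response element, searched on both strands.
Ifitm1 (chr7:140967926-140968105, plus strand): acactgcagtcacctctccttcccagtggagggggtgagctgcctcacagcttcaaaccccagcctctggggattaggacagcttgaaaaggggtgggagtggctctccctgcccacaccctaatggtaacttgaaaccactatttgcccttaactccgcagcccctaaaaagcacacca
Ifitm2 (chr7:140955932-140956111, minus strand): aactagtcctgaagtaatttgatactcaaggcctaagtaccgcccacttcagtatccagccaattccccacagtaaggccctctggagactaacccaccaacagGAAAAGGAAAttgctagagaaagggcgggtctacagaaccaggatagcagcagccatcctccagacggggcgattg
Ifitm3 (chr7:141010715-141010894, minus strand): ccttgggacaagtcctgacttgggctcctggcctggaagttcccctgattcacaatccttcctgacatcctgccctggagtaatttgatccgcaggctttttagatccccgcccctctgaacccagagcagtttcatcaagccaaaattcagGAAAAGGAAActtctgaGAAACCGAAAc

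Over the whole 300-base window of the RefSeq table, from 250 bases before to 50 after the start, Ifitm2 held 1 match at -46 to -37 and Ifitm3 held 2, at 3 to 12 and at 20 to 29, while these letters were not in the Ifitm1 window. TTCNNNGAA, the core of the gamma-activated site, was found in Ifitm3 at 14 to 22, which overlaps the match at 20 to 29. Neither motif was found in the windows of Kit, Alpl or Cxcr4. Of 32851 promoters of the same length, 3.44% hold GAAANNGAAA and 8.3% hold TTCNNNGAA. The matches describe sequence and show no binding.

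Ifitm1 had 15.6, 19.0 and 21.2 CPM in TKO_40h, 54.8, 31.6 and 37.9 CPM in TKO_48h, 31.7, 23.4 and 24.9 CPM in TKO_96h, and 32.5, 27.2 and 21.4 CPM in WT_40h. TKO_40h lay below every other group, and the high group was TKO_48h, led by its replicate 1. Ifitm1 was higher in TKO_48h than in TKO_40h by 1.15 ± 0.22 (2.22-fold, adjusted p = 0.0048) and lower in TKO_96h than in TKO_48h, by -0.63 ± 0.22 (adjusted p = 0.047). Without TKO_48h replicate 1 the later difference was -0.38 (adjusted p = 0.26), and it also missed the threshold without TKO_48h replicate 3, TKO_96h replicate 2 or 3, or 5 of the 6 libraries of the other groups (adjusted p = 0.051 to 0.16). The groups ran TKO_48h, WT_40h, TKO_96h and TKO_40h, where no neighbours passed the test: TKO_48h over WT_40h was 0.61 ± 0.22 (adjusted p = 0.11), TKO_96h over WT_40h -0.02 ± 0.22 (0.96) and TKO_96h over TKO_40h 0.52 ± 0.22 (0.15). TKO_40h over WT_40h was -0.54 ± 0.22 (adjusted p = 0.23).

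Ifitm2 had 32.3, 28.6 and 31.5 CPM in TKO_40h, 59.3, 57.5 and 71.6 CPM in TKO_48h, 93.0, 74.2 and 50.4 CPM in TKO_96h, and 46.0, 47.4 and 54.6 CPM in WT_40h. TKO_40h was again lowest without overlap, while TKO_96h spread widely enough for its replicate 3 to fall within the WT_40h values. Ifitm2 was lower in TKO_40h than in WT_40h by a log2 fold change of -0.68 ± 0.18 (0.626-fold, adjusted p = 0.042). It was higher in TKO_48h than in TKO_40h by 1.03 ± 0.18 (2.04-fold, adjusted p = 0.002) and in TKO_96h than in TKO_40h by 1.23 ± 0.18 (2.35-fold, adjusted p = 1e-04), and higher in TKO_96h than in WT_40h by 0.56 ± 0.17 (adjusted p = 0.029). In the order TKO_96h, TKO_48h, WT_40h and TKO_40h, the last neighbours alone passed the test (TKO_96h over TKO_48h 0.21 ± 0.17, adjusted p = 0.45; TKO_48h over WT_40h 0.35 ± 0.17, adjusted p = 0.27). The 40 h difference from WT was lost without any 1 of the 6 libraries compared (-0.59 to -0.72, adjusted p = 0.093 to 0.17), with the length offset (adjusted p = 0.15) and with coding transcripts alone (adjusted p = 0.066). The 96 h difference from WT was lost without TKO_96h replicate 1 (0.35, adjusted p = 0.2) or 2, WT_40h replicate 1 or 2 (adjusted p = 0.074 to 0.096) and with the length offset (adjusted p = 0.12).

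Ifitm3 had 18.0, 15.4 and 15.7 CPM in TKO_40h, 51.2, 32.0 and 28.0 CPM in TKO_48h, 46.4, 39.2 and 49.2 CPM in TKO_96h, and 24.6, 14.6 and 17.3 CPM in WT_40h. Both TKO groups primed longer lay above all libraries primed for 40 h, of either genotype, which overlapped each other. Ifitm3 was higher than in TKO_40h both in TKO_48h, by 1.17 ± 0.23 (2.26-fold, adjusted p = 0.0053), and in TKO_96h, by 1.46 ± 0.23 (2.74-fold, adjusted p = 0.00025), with 0.28 ± 0.22 between TKO_96h and TKO_48h (adjusted p = 0.41). It was also higher than in WT_40h, by 0.97 ± 0.23 in TKO_48h (adjusted p = 0.016) and 1.25 ± 0.23 in TKO_96h (2.38-fold, adjusted p = 0.00064), while TKO_40h over WT_40h was -0.21 ± 0.23 (adjusted p = 0.76). From high to low the groups ran TKO_96h, TKO_48h, WT_40h and TKO_40h, and only TKO_48h and WT_40h among neighbours passed the test, a call that was lost without TKO_48h replicate 1 (0.67, adjusted p = 0.11) or without WT_40h replicate 2 or 3 (adjusted p = 0.092 and 0.075), and with the length offset (adjusted p = 0.077).

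Summed over Ifitm1, Ifitm2 and Ifitm3, the level was 65.8 ± 2.72 CPM in TKO_40h, 141 ± 22.4 CPM in TKO_48h, 144 ± 24.1 CPM in TKO_96h and 95.2 ± 7.13 CPM in WT_40h. The transcripts share sequence with each other and with predicted genes, so reads could be split between them. Of the stretches of 31 bases, 17.7% in the first listed transcript of Ifitm1, 55.5% in Ifitm2 and 20.5% in Ifitm3 occur in another gene, among them 238 of 625 in Ifitm2 that also occur in Gm45717, which overlaps it on the same strand. The split of reads between Ifitm2 and Gm45717 is uncertain, but Gm45717 took at most 1.11 CPM in any library, and 9 such predicted genes together at most 2.07 CPM. Taf6l, which shares 5 stretches, had 10.4 to 28.1 CPM. Kit and Alpl share none. Of the other Ifitm genes, only Ifitm7 passed the filter, with 5.69 ± 1.68 CPM in TKO_40h against 5.88 ± 0.575 CPM in WT_40h, with no call in any of the 6 comparisons.

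Alpl (ENSMUSG00000028766.10; chromosome 4, 137741733 to 137796384, minus strand) had 183, 192 and 183 CPM in TKO_40h, 274, 211 and 217 CPM in TKO_48h, 162, 189 and 157 CPM in TKO_96h, and 165, 166 and 178 CPM in WT_40h. In CPM, TKO_48h was highest without overlap, by a wide margin only in its replicate 1, and TKO_40h lay just above WT_40h. Alpl was lower in TKO_96h than in TKO_48h by a log2 fold change of -0.47 ± 0.11 (0.724-fold, adjusted p = 0.0063) and higher in TKO_48h than in WT_40h by 0.46 ± 0.11 (1.38-fold, adjusted p = 0.019). That second call was lost without TKO_48h replicate 1 (0.34, adjusted p = 0.097) or without any 1 WT_40h library (0.45 to 0.51, adjusted p = 0.051 to 0.085). With the length offset neither call held (adjusted p = 0.051 for TKO_96h over TKO_48h and 0.16 for TKO_48h over WT_40h). The groups ran TKO_48h, TKO_40h, WT_40h and TKO_96h. TKO_48h over TKO_40h was 0.33 ± 0.11 (adjusted p = 0.098), TKO_40h over WT_40h 0.13 ± 0.11 (adjusted p = 0.64), and TKO_96h over WT_40h 0.00 ± 0.11 (95% interval -0.24 to 0.23), and no neighbours passed the test. The other alkaline phosphatases of the mouse, Alpi, Akp3 and Alppl2, did not pass the filter, and their summed level was at most 1.22 CPM in any library.

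Cxcr4 (ENSMUSG00000045382.6; chromosome 1, 128588199 to 128592293, minus strand) had 1, 2 and 9 counts in TKO_40h, 0, 3 and 0 counts in TKO_48h, 5, 0 and 0 counts in TKO_96h, and 16, 5 and 10 counts in WT_40h. WT_40h was the only group with counts above 3 in all libraries, and it overlapped TKO_40h and TKO_96h. A count of 0 allows up to 3 counts, which is 0.396 to 0.515 CPM in the TKO_48h and TKO_96h libraries. Summed over each group, Cxcr4 came to 0.514 CPM in TKO_40h (exact Poisson 95% interval 0.266 to 0.898), 0.147 CPM in TKO_48h (0.0304 to 0.431), 0.234 CPM in TKO_96h (0.0760 to 0.547) and 1.31 CPM in WT_40h (0.888 to 1.86), intervals that cover counting error only. Fitted without the filter, it was not called in any of the 6 comparisons (edgeR, adjusted p = 0.4 to 0.87). The WT_40h interval lay above those of TKO_48h and TKO_96h, and the WT_40h libraries did not overlap those of TKO_48h, but the counting intervals leave out the spread between libraries.

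Per length, Ifitm2 and Alpl were the most abundant of the 6 messages in TKO_40h, TKO_48h and WT_40h, and Ifitm2 and Ifitm3 in TKO_96h. Alpl came to 58.2 ± 2.94 TPM in TKO_40h, 54.8 ± 4.43 TPM in TKO_48h, 51.5 ± 8.54 TPM in TKO_96h and 49.9 ± 2.53 TPM in WT_40h. The order of its groups thus differed from that in CPM, where TKO_48h was highest, and by TPM TKO_48h and TKO_40h overlapped. Ifitm2 came to 40.7 ± 4.44 TPM in TKO_40h, 67.4 ± 13.1 TPM in TKO_48h, 94.1 ± 29.1 TPM in TKO_96h and 62.0 ± 6.45 TPM in WT_40h. Ifitm3, at 20.6 ± 2.34 TPM in TKO_40h and 55.0 ± 1.87 TPM in TKO_96h, was the fourth most abundant in TKO_40h and the second in TKO_96h. Kit was the fifth in every group, at 8.77 ± 1.81 TPM in TKO_40h, 13.3 ± 2.58 TPM in TKO_48h, 16.7 ± 3.12 TPM in TKO_96h and 18.1 ± 1.14 TPM in WT_40h, and Cxcr4 the last. Without its retained introns Kit came to 7.16 ± 0.826 TPM in TKO_40h, 8.37 ± 2.70 in TKO_48h, 9.15 ± 1.61 in TKO_96h and 11.3 ± 2.97 in WT_40h.

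**Figure D3:**
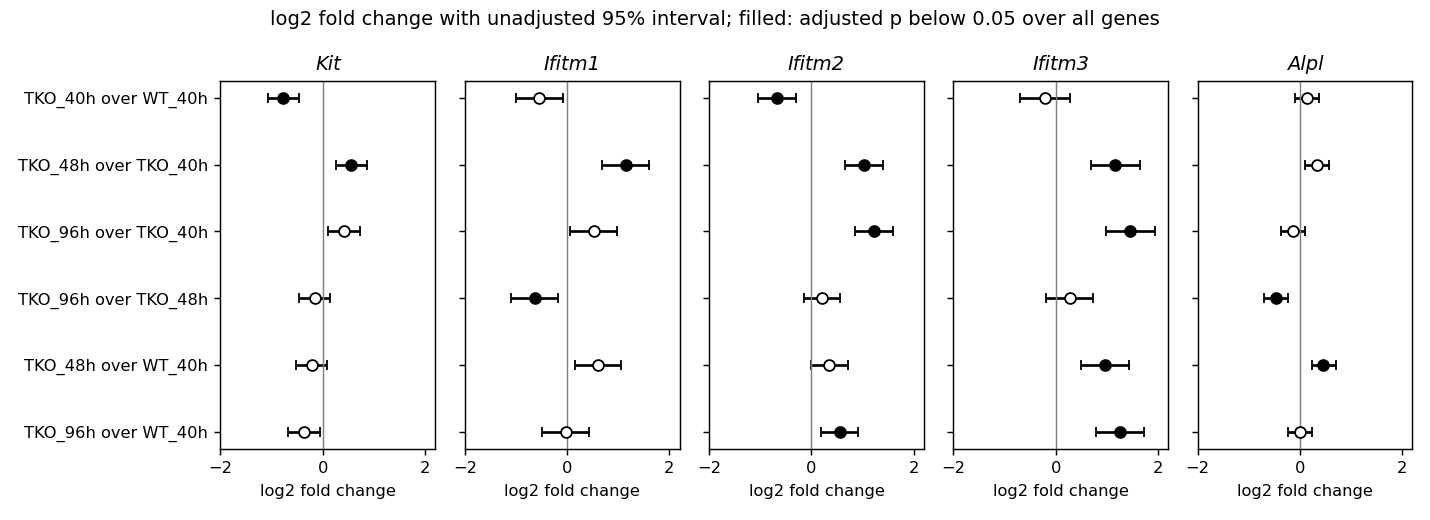
Log2 fold changes of the 5 tested genes in the 6 comparisons (x axis: points with 95% intervals; filled points are called). All 4 calls of TKO_48h over TKO_40h are higher and lie between 0.56 and 1.17, while both calls of TKO_40h over WT_40h are lower, at -0.78 and -0.68.

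Ligands and partners of the receptors were read from lists of pathway genes. Of all tested genes, 3.1% were called in TKO_40h against WT_40h, 5.49% in TKO_48h against TKO_40h and 12.1% in TKO_96h against TKO_40h. In lists this short a count of 0 or 1 says little beside those shares. The counts of these and the later lists were not tested and are descriptions. Of 16 genes of KIT signalling, all tested, 1 was called lower and 0 higher in TKO_40h against WT_40h (median log2 fold change 0.12, against 0.00 over all genes). That gene was Cbl, a ubiquitin ligase that removes active KIT, with 115 ± 8.29 CPM in TKO_40h and 156 ± 14.9 CPM in WT_40h (-0.44 ± 0.12, adjusted p = 0.048). None was called in TKO_48h against TKO_40h, where the 16 had a median of 0.00. In TKO_96h against TKO_40h 5 of 16 were lower and 0 higher (median -0.33), beside 12.1% of all tested genes called in either direction. Among the 5 were Sos1, an exchange factor that activates Ras (75.8 ± 7.41 CPM in TKO_96h and 114 ± 5.12 CPM in TKO_40h, adjusted p = 0.0011), and Ptpn6, a phosphatase that dampens the receptor (26.3 ± 4.63 CPM in TKO_96h and 50.2 ± 7.90 CPM in TKO_40h, adjusted p = 0.0084). The ligand Kitl averaged 15.2 ± 2.19 CPM in TKO_40h, 12.7 ± 4.41 CPM in TKO_48h, 8.70 ± 1.06 CPM in TKO_96h and 7.77 ± 1.70 CPM in WT_40h. It passed the test in none of the 6 comparisons, with 0.97 ± 0.29 for TKO_40h over WT_40h (adjusted p = 0.082).

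On the CXCR4 side, 10 of 12 genes were tested. Cxcl12, the ligand, averaged 5.57 ± 2.28 CPM in TKO_40h, 9.18 ± 3.49 CPM in TKO_48h, 1.65 ± 0.779 CPM in TKO_96h and 9.55 ± 2.32 CPM in WT_40h, so that the TKO_96h group was low. It was lower in TKO_96h than in TKO_40h (-1.73 ± 0.47, adjusted p = 0.019), than in TKO_48h (-2.45 ± 0.47, adjusted p = 0.00097) and than in WT_40h (-2.50 ± 0.47, adjusted p = 0.00083). Ackr3, the receptor that scavenges CXCL12, averaged 2.03 ± 1.06 CPM in TKO_40h, 1.95 ± 0.797 CPM in TKO_48h, 0.532 ± 0.462 CPM in TKO_96h and 0.622 ± 0.136 CPM in WT_40h, with no call. Gnai2, a G protein subunit used by the receptor, was higher in TKO_40h (231 ± 12.8 CPM) than in WT_40h (166 ± 6.89 CPM, log2 fold change 0.48 ± 0.10, adjusted p = 0.011).

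Among 23 interferon-responsive genes, 16 of them tested, none was called between TKO_40h and WT_40h (median 0.17) or between TKO_48h and TKO_40h (median 0.02). Of all tested genes 3.1% and 5.49% were called there, so 0 of 16 is near the background. Some of the 16 were low, such as Irf7 (0.997 CPM) and Rsad2 (1.93 CPM) in TKO_40h. Any part of interferon in the Ifitm changes was not tested. In TKO_96h against TKO_40h 1 was higher and 2 lower (median -0.13), beside 12.1% of all tested genes called. Eif2ak2, the double-stranded RNA sensor PKR, was the higher one, at 44.5 ± 6.06 CPM in TKO_96h and 28.9 ± 3.48 CPM in TKO_40h (adjusted p = 0.015). Irf1, an interferon-induced transcription factor, was lower, at 17.0 ± 1.59 CPM in TKO_96h and 46.3 ± 7.40 CPM in TKO_40h (-1.45 ± 0.16, adjusted p = 3.6e-06).

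Of 12 other surface proteins of germ and pluripotent cells, 3 were called higher in TKO_40h than in WT_40h and 0 lower (median 0.29), beside 3.1% of all tested genes called. Podxl, a sialomucin, had 87.3 ± 5.76 CPM in TKO_40h and 52.1 ± 8.35 CPM in WT_40h (0.75 ± 0.15, adjusted p = 0.0077), and the adhesion protein Epcam had 139 ± 6.88 CPM in TKO_40h and 93.7 ± 8.22 CPM in WT_40h (0.57 ± 0.13, adjusted p = 0.017). Itga6, an integrin subunit, was the 1 call of 12 between TKO_48h and TKO_40h, lower by -0.59 ± 0.16 (adjusted p = 0.037). Both Podxl (-1.61 ± 0.15, adjusted p = 5.7e-07) and Epcam (-1.30 ± 0.13, adjusted p = 1.2e-06) were lower in TKO_96h than in TKO_40h, a comparison with 2 of 12 higher and 4 lower, beside 12.1% of all tested genes called. The 2 higher were Cd38 (2.22 ± 0.42, adjusted p = 0.0013) and Cd24a (0.64 ± 0.16, adjusted p = 0.011).

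Of 9 germ cell genes, 2 were higher in TKO_40h than in WT_40h and 0 lower (median -0.27), beside 3.1% of all tested genes called. They were Dppa3, which protects DNA methylation in the early embryo, with 51.5 ± 5.44 CPM in TKO_40h and 16.7 ± 3.81 CPM in WT_40h (adjusted p = 0.00015), and Dazl, an RNA-binding protein of germ cells, with 103 ± 17.9 CPM in TKO_40h and 62.5 ± 4.23 CPM in WT_40h (adjusted p = 0.0068). Dazl was the 1 call of 9 in TKO_48h against TKO_40h, lower by -0.97 ± 0.14 (adjusted p = 0.00048). In TKO_96h against TKO_40h 4 of 9 were lower and 0 higher, beside 12.1% of all tested genes called. Among the 4 were Dppa3 (-1.47 ± 0.20, adjusted p = 6.5e-05) and Ddx4, a germ cell RNA helicase (-1.19 ± 0.18, adjusted p = 0.00023). The others were Prdm1 (-1.01 ± 0.23, adjusted p = 0.0067) and Tfap2c (-0.79 ± 0.17, adjusted p = 0.0043). Of 11 genes of lipid anchoring and phosphate handling beside Alpl, 1 was called in each of these 3 comparisons. These were Slc20a1, a phosphate importer (higher in TKO_40h than in WT_40h by 0.52 ± 0.11, adjusted p = 0.013, and lower in TKO_48h than in TKO_40h by -0.50 ± 0.11, adjusted p = 0.011) and Ank, a pyrophosphate exporter (lower in TKO_96h than in TKO_40h by -1.63 ± 0.41, adjusted p = 0.013).

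**Figure D4:**
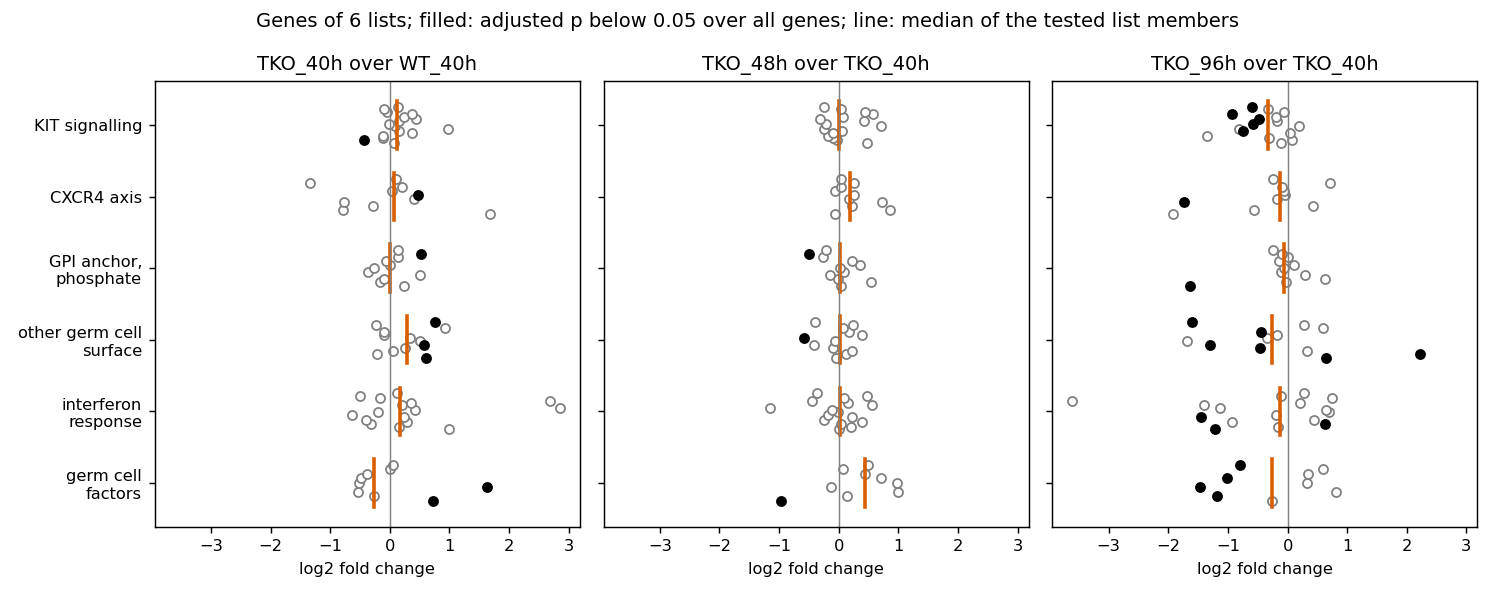
Log2 fold changes (shared x axis) of the tested genes of 6 lists in the 3 main comparisons; each point is a gene, filled where called, and the vertical line is the list's median. In TKO_48h over TKO_40h no gene of KIT signalling, the CXCR4 axis or the interferon list is called, where 5.49% of all tested genes are. The medians of KIT signalling (0.00) and interferon-responsive genes (0.02) are near 0.

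Markers of other cells that could be present moved with some of these comparisons. Their counts stand beside 3.1% of all tested genes called in TKO_40h against WT_40h. The share was 5.49% in TKO_48h and 12.1% in TKO_96h, each against TKO_40h. The summed level of 12 endothelial and blood markers, cell types that also use KIT and CXCR4, was 18.2 to 25.5 CPM in TKO_40h, 18.7 to 23.0 CPM in TKO_48h, 14.8 to 25.8 CPM in TKO_96h and 11.9 to 14.7 CPM in WT_40h. Cdh5, the endothelial cadherin, was the 1 of 8 tested that was called in TKO_40h against WT_40h, with 2.53 ± 0.773 CPM in TKO_40h against 0.0816 ± 0.0715 CPM in WT_40h (adjusted p = 0.046). No marker of any of these lists was at 0 in all libraries, and 4 of these 12 averaged under 1 CPM. The 10 mesoderm markers summed to 24.9 to 36.9 CPM in TKO_40h, 34.2 to 40.8 CPM in TKO_48h, 17.8 to 24.3 CPM in TKO_96h and 12.1 to 15.2 CPM in WT_40h, and Hand1, also a trophoblast marker and the 1 call of 6 tested, was higher in TKO_40h (10.2 ± 3.12 CPM) than in WT_40h (2.00 ± 0.720 CPM, adjusted p = 0.0047). The 10 trophoblast markers summed to 75.0 to 84.6 CPM in TKO_40h, 50.0 to 80.1 CPM in TKO_48h, 37.7 to 51.0 CPM in TKO_96h and 37.6 to 50.5 CPM in WT_40h, with 3 of 8 tested lower in TKO_96h than in TKO_40h, Eomes among them (-1.72 ± 0.31, adjusted p = 0.00094). Endoderm markers, 10 in number, summed to 41.2 to 45.5 CPM in TKO_40h, 37.6 to 48.6 CPM in TKO_48h, 14 to 28 CPM in TKO_96h and 23.7 to 39.4 CPM in WT_40h. Of these 3 of 8 tested were lower in TKO_96h than in TKO_40h, and Afp and Apoa1 had no count in any TKO_96h library, where 0 allows 0.396 to 0.453 CPM, against 3.05 ± 1.09 CPM and 2.52 ± 0.473 CPM in TKO_40h. The 8 neural markers summed to 113 to 134 CPM in TKO_40h, 137 to 146 CPM in TKO_48h, 167 to 204 CPM in TKO_96h and 126 to 149 CPM in WT_40h, with Nes, an intermediate filament of neural progenitors, the 1 of 5 called higher than in TKO_40h both in TKO_48h (0.60 ± 0.15, adjusted p = 0.023) and in TKO_96h (1.04 ± 0.15, adjusted p = 1e-04). Nes averaged 49.3 ± 11 CPM in TKO_40h and 101 ± 11.6 CPM in TKO_96h. The others tested were not called in TKO_96h over TKO_40h: Sox1 (0.02), Pax6 (0.29), Zic1 (-0.03) and Pou3f2 (0.56).

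Genes listed for naive pluripotency, which pluripotent cells share with Alpl, summed to 1910 to 1980 CPM in TKO_40h, 1950 to 2210 CPM in TKO_48h, 2120 to 2370 CPM in TKO_96h and 1810 to 2000 CPM in WT_40h. Of 10 tested, 1 was higher in TKO_40h than in WT_40h (Zfp42, 0.50 ± 0.10, adjusted p = 0.009) and 1 higher in TKO_48h than in TKO_40h (Tfcp2l1, 0.48 ± 0.12, adjusted p = 0.018). In TKO_96h against TKO_40h 6 were higher and 2 lower, beside 12.1% of all tested genes called. Tbx3 was higher by 1.23 ± 0.14 (adjusted p = 7.2e-06) and Klf2 lower by -0.79 ± 0.12 (adjusted p = 2e-04). Tdgf1 (518 ± 52.1 CPM) and Zfp42 (517 ± 13.1 CPM) made up much of the sum in TKO_40h and moved in opposite directions. In TKO_96h Tdgf1 was lower by -0.47 ± 0.10 (adjusted p = 0.0027) and Zfp42 higher by 0.58 ± 0.10 (adjusted p = 0.00063). The part of any of these cell types in the changes of the surface genes was not tested.

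The genes whose pattern was most like each member were found by the root mean square difference of centred log2 CPM over the 12 libraries, among 10802 genes that averaged at least 5 CPM. For Kit these were Helb, a DNA helicase, and Dnajc16, both at 0.16, and Helb averaged 41.7 CPM in TKO_40h, 65.8 CPM in TKO_48h, 55.5 CPM in TKO_96h and 68.7 CPM in WT_40h. Nearest to Ifitm1 were Capns1 (0.23) and Pecr (0.24), to Ifitm2 Aes and Hmces (0.25 each), to Ifitm3 Pnkd and Acot8 (0.31 each), and to Alpl Mtmr14 and Eif3f (0.09 each). The distance was smaller than each member's own spread over the libraries, which was 0.32 for Kit, 0.46 for Ifitm1, 0.50 for Ifitm2, 0.66 for Ifitm3 and 0.21 for Alpl. A gene with no change lies at a distance equal to that spread. The nearest of 10802 genes thus fall below it almost by selection, and the distances were not tested. No member was among the 2 genes nearest to another.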

How the data were processed

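RNA of 12 libraries was prepared with a stranded total RNA kit from at least 10 ng, per the labels' protocols. Trimming with Trim Galore 0.6.2, quantification with kallisto and the build GRCm38 (mm10) are per the submitters' processing notes. A kallisto version, transcript set or strand setting was not given in the sources used here. Per the file headers, the authors deposited estimated counts per transcript, not scaled to depth, and TPM, scaled to effective length and depth. Of 119414 transcripts, 116728 (97.8%) matched GENCODE M21 by ID. Expected counts were summed per gene and rounded to whole numbers (35975 genes; 6286478 to 8820860 counts per library, with 2.68 to 4.32% in unmatched transcripts).

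edgeR 4.0.16 (R 4.3.3) was fitted to all 12 libraries with 1 mean per group, TMM factors 0.927 to 1.06, filterByExpr (minimum count 10, minimum total 15) and two-sided quasi-likelihood F-tests with Benjamini-Hochberg adjustment over 16178 genes. CPM use TMM library sizes. Libraries were not paired by replicate number, since same-numbered ones, centred on their group means, correlated at -0.06 to 0.051 over 18 pairs. In simulated counts the fit recovered 17.4 to 19.1% of genes changed 1.5-fold, with 7.73 to 11.7% of calls false. At 2-fold it recovered 63.4 to 68.4% (5.09 to 7.13% false) and at 4-fold 96.3 to 97.1% (4.56 to 5.5% false), where false is the share of all calls in counts whose changed genes all changed by that fold. Each recovery rate rests on 1000 changed genes over 5 draws of 16178 genes. The rates may not hold for the genes named here, some of which had few counts. Alternatives were DESeq2 1.42.0, size factors by RLE, a fit with no filter, a replicate block, an effective length offset, protein-coding transcripts only, only the groups compared, and each library left out. The genes described and the gene lists were chosen with earlier results of these data known. Named besides the 6 genes were Kitl, Cxcl12 and Ackr3, Dnmt1, Dnmt3a and Dnmt3b, up to 2 called genes of each list in each of the first 3 comparisons, and the 2 genes nearest to each member. Genes named to check labels or shared sequence (Prdm1, Nanos3, Taf6l, Gm45717, Ifitm7) fall outside that rule and were chosen after their values were seen. The same holds for further list genes (Irf7, Rsad2, Tfap2c, Cd38, Cd24a, Sox1, Pax6, Zic1, Pou3f2 and Tdgf1). Python 3.11.15, numpy 2.4.6, pandas 2.3.3 and matplotlib 3.10.9 were used.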

Additional observations from a re-analysis of the deposited data

How the results depend on the processing

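No called log2 fold change of the 5 tested members changed sign under an alternative, and 520 recomputed values, called or not, kept their side of the threshold, 44 lost a call and 6 gained one. The 520 include differences not called in the main fit, which had no call to lose. They also include fits that left out a library of a group not compared. The 520 are thus no measure of how stable the calls were. RLE size factors, DESeq2 and the replicate block changed no member's call (with the block, 520 genes were called for TKO_40h over WT_40h and 903 for TKO_48h over TKO_40h). Replicate numbers did not pair these libraries.

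The effective length offset moved most counts. With it 75 genes and 1 member (Kit) were called for TKO_40h over WT_40h, 203 genes for TKO_48h over TKO_40h, 828 for TKO_96h over TKO_40h, 1639 and 0 members for TKO_96h over TKO_48h, 238 and 0 members for TKO_48h over WT_40h, and 1467 and 1 member for TKO_96h over WT_40h. With protein-coding transcripts only, 317 genes and 1 member were called for TKO_40h over WT_40h, 449 genes for TKO_48h over TKO_40h, 509 for TKO_48h over WT_40h, and 1 member for TKO_96h over TKO_48h. With only the groups compared, 1278 genes were called for TKO_40h over WT_40h, 586 for TKO_48h over WT_40h, and 1 member for TKO_96h over TKO_48h. TKO_40h over WT_40h gave 790 genes with no filter and 785 with DESeq2. The cause of these shifts was not tested.

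Leaving out 1 library at a time gave 181 (without WT_40h replicate 2) to 665 genes and 0 to 2 members for TKO_40h over WT_40h, 324 (without TKO_40h replicate 1) to 1107 genes and 3 to 4 members for TKO_48h over TKO_40h, and 1209 (without TKO_40h replicate 3) to 2270 genes and 2 members for TKO_96h over TKO_40h. It gave 1 to 2 members for TKO_96h over TKO_48h, 397 to 1539 genes and 0 to 3 members for TKO_48h over WT_40h, and 1 to 3 members for TKO_96h over WT_40h. Members gained a call in 6 cases, of which 3 were Kit in TKO_96h over TKO_40h, with no filter (0.42, adjusted p = 0.029), with the length offset (0.94) and with only the groups compared (0.41, adjusted p = 0.046). The other 3 were Alpl in TKO_48h over TKO_40h (0.40, adjusted p = 0.041) and Ifitm1 in TKO_48h over WT_40h (0.77, adjusted p = 0.036), both without TKO_48h replicate 2, and Kit in TKO_96h over WT_40h without WT_40h replicate 3 (-0.51, adjusted p = 0.024). Among differences that were not called, the sign turned for Ifitm3 in TKO_40h over WT_40h (0.05 without WT_40h replicate 1), Ifitm2 in TKO_96h over TKO_48h (-0.02 without TKO_96h replicate 1), Kit in TKO_96h over TKO_48h (0.01 with the length offset) and Ifitm1 in TKO_96h over WT_40h (0.15 without WT_40h replicate 1, and 0.07 and 0.03 without TKO_96h replicate 2 or 3), while Alpl in TKO_96h over WT_40h, at 0.00, lay on either side (-0.08 to 0.05). Cxcr4, with at most 16 counts in a library, has the least depth of the 6 genes.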
